A study of Mus musculus with 6 samples.

Results

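The 6 Dlx homeobox genes of the mouse, Dlx1 to Dlx6, were followed in ectoderm of the E10.5 forelimb bud with and without Sp8, which encodes a DNA-binding zinc finger protein needed for limb outgrowth. They were the rows of the expression table with those symbols, 6 of 49452 genes. RNA was measured in 6 libraries, 3 from wild-type and 3 from Sp8 null embryos, and each library held the ectoderm of both forelimbs of a single embryo. Wild-type embryos came from matings of C57BL/6 inbred mice. Sp8 null embryos came from matings of Sp8+/- parents that carried the allele called Sp8-Cre-ERT2, and the strain label of both groups was C57BL6J. The genotypes therefore came from different matings. Which part of Sp8 the allele removes was not given in the sources used here.

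Dlx proteins are homeodomain transcription factors related to Distal-less of the fly, which is needed for the outgrowth of appendages. In mammals the genes lie in linked pairs, the genes of a pair are transcribed toward each other, and enhancers between them can act on both. Each pair holds a member of each of the paralogue sets into which the family is divided, Dlx2, Dlx3 and Dlx5 in the former and Dlx1, Dlx4 and Dlx6 in the latter. In the limb bud Dlx genes are known from the apical ectodermal ridge, the thickened rim of ectoderm that drives outgrowth, and joint loss of Dlx5 and Dlx6 gives a split hand and foot.

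Coordinates are those of GENCODE M21 on GRCm38, and all 6 genes are protein-coding. Dlx1 (ENSMUSG00000041911, chr2:71528113-71533981, plus strand) and Dlx2 (ENSMUSG00000023391, chr2:71543408-71546754, minus strand) are 9.4 kb apart. Dlx3 (ENSMUSG00000001510, chr11:95120119-95125296, plus strand) and Dlx4 (ENSMUSG00000020871, chr11:95140447-95146263, minus strand) are 15.2 kb apart. Dlx6 (ENSMUSG00000029754, chr6:6863334-6868568, plus strand) and Dlx5 (ENSMUSG00000029755, chr6:6877805-6882085, minus strand) are 9.2 kb apart.

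The homeobox, the 180 bases that encode the DNA-binding homeodomain, is shown for each gene as a stretch that all members share. Reads from stretches that are alike could be assigned to the wrong member. In every gene it runs from exon 2 into exon 3 of the transcript used. Sequences are the coding strand, 5′ to 3′, from the GENCODE M21 transcripts. Capitals mark the 92 positions at which all 6 genes have the same base. On the genome the homeoboxes span chr2:71531025-71532311 (Dlx1), chr2:71544877-71545515 (Dlx2), chr11:95121767-95123456 (Dlx3), chr11:95141422-95141920 (Dlx4), chr6:6878441-6879657 (Dlx5) and chr6:6865140-6867088 (Dlx6), introns included.
Dlx1: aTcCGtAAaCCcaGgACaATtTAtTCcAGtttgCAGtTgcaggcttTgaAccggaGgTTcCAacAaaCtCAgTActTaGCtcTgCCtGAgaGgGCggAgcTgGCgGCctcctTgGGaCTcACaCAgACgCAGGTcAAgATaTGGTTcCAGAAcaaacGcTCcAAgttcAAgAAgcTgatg
Dlx2: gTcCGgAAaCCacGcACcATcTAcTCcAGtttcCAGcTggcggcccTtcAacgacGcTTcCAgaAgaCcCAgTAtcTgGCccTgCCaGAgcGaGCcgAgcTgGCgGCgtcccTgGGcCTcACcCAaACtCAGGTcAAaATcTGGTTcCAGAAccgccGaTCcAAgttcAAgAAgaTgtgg
Dlx3: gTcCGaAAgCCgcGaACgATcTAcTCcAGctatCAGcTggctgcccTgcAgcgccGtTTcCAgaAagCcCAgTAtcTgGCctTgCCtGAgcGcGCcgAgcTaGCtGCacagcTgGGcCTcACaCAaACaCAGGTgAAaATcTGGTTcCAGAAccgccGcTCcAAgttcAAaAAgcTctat
Dlx4: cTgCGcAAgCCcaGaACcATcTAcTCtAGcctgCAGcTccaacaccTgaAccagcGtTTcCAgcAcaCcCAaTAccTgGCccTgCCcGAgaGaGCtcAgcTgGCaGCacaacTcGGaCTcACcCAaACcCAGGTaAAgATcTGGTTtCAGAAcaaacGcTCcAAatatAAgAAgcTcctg
Dlx5: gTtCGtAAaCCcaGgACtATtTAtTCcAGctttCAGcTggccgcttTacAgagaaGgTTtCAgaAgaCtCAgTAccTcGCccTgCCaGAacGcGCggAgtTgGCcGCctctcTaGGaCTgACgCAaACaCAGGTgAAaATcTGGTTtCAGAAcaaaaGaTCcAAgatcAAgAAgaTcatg
Dlx6: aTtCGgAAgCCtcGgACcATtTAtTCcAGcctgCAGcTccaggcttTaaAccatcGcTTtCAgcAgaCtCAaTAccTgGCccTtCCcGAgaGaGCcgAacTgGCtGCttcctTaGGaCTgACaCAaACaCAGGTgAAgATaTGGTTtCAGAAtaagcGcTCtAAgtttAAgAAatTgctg

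Of the 60 encoded residues, 46 were the same in all members. Homeodomains of the same paralogue set were 86.7% to 96.7% identical in residues over 6 pairs, and those of linked genes 80.0% to 86.7% over 3 pairs. The most alike were those of Dlx1 and Dlx6, with 2 residues different. In bases the most alike homeoboxes were those of Dlx2 and Dlx3, at 81.7%. The longest run of bases shared by annotated transcripts of any 2 members was 23, for Dlx2 with Dlx3, Dlx2 with Dlx6 and Dlx3 with Dlx5. This run was sought over whole transcripts, so it need not lie in the homeobox. Whether reads were assigned to the wrong member was not tested.

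Expression was deposited as FPKM, fragments scaled by transcript length and by the number mapped in the library, so levels can be compared between genes. Sp8 was at 8.35, 10.97 and 13.5 FPKM in wild-type embryos 1, 2 and 3 and at 0.766, 0.46 and 1.14 FPKM in Sp8 null embryos 1, 2 and 3, so each library followed its label. Depth was known relative to wild-type embryo 1 only and ranged from 0.842 to 1.03. Genes were tested with limma on log2(FPKM + 1) and called at a Benjamini-Hochberg adjusted p under 0.05, which called 204 genes higher and 625 lower in Sp8 null of 12133 tested. The share of higher genes among the calls was 24.6%, against 37.5% after median-of-ratios scaling and 43.95% after upper-quartile scaling. All 11 surface ectoderm markers passed the filter, and 1 was called lower and 1 higher. All 9 tested ridge markers fell in Sp8 null. They include Sp8 itself, and Rspo2, Fgf4 and Fgf9 passed the filter through wild type alone. The list was also chosen with earlier results of these data known. The summed FPKM of the 11 listed was 191 to 205 in wild type and 19.2 to 25.15 in Sp8 null.

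In wild-type ectoderm the Dlx genes stood at 3 levels. Dlx5 (17.7 ± 2.47 FPKM, SD, n = 3) and Dlx3 (17.0 ± 1.40 FPKM) were highest, Dlx1 (10.7 ± 0.580 FPKM) and Dlx2 (10.1 ± 1.117 FPKM) were intermediate, and Dlx6 (2.75 ± 1.20 FPKM) and Dlx4 (2.51 ± 0.385 FPKM) were lowest. The libraries of 1 level did not overlap those of the next, and within each level they did. In Sp8 null ectoderm Dlx3 (9.49 ± 1.01 FPKM) and Dlx5 (8.203 ± 2.36 FPKM) were again highest with overlapping libraries. The others followed below Dlx5, with no overlap, at 2.55 ± 1.03 FPKM for Dlx1, 1.92 ± 0.735 for Dlx2, 0.907 ± 0.285 for Dlx6 and 0.794 ± 0.145 for Dlx4, and each overlapped its neighbour in that order. The summed FPKM of the family was 60.1, 64.2 and 58.0 in wild-type embryos 1, 2 and 3 and 25.7, 18.4 and 27.5 in Sp8 null embryos 1, 2 and 3, a ratio of means of 2.54.

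**Figure D1:**
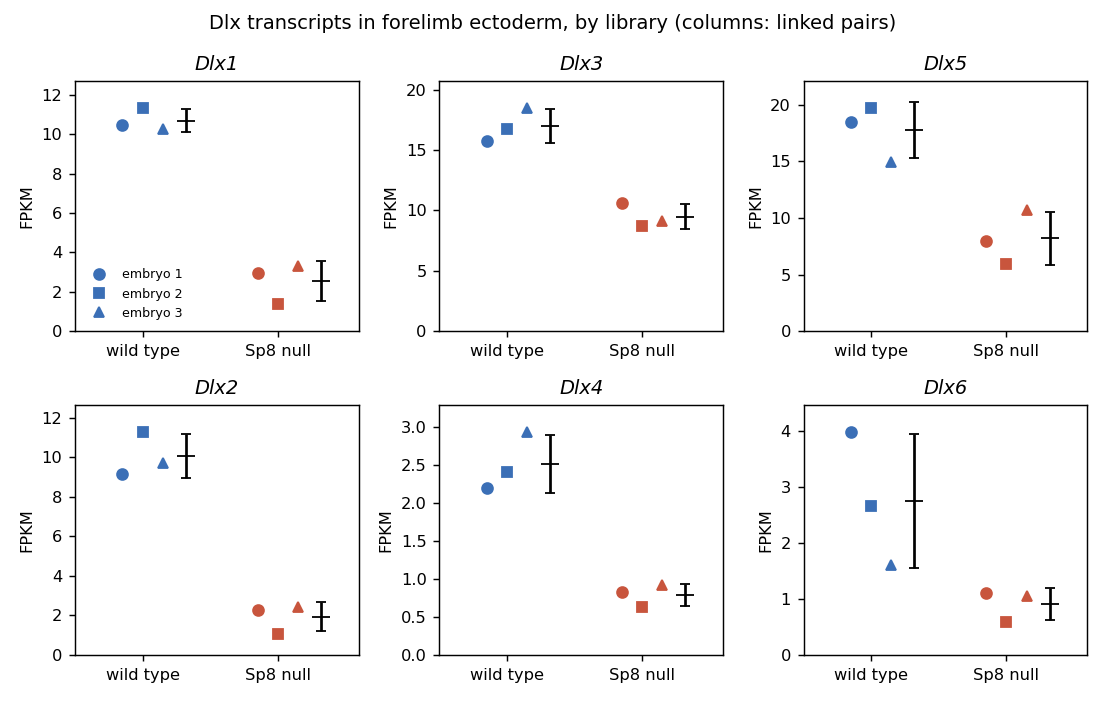
FPKM of each Dlx gene (y axis) in 3 wild-type (blue) and 3 Sp8 null (red) libraries, with the embryo number as the marker shape and the mean ± SD in black. Each column holds a linked pair, and in every panel the lowest wild-type library lies above the highest Sp8 null library.

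The mean of all 6 members was lower in Sp8 null, and 5 of the 6, all but Dlx6, were called. Among all tested genes 6.83% were called, 5.15% lower and 1.68% higher. The groups did not overlap for any member, which held for 29.8% of tested genes and in this direction for 21.1%. Dlx4 passed the filter of 1 FPKM in 3 libraries through its wild-type libraries alone, so a lower value in Sp8 null was built into its being tested. In these bulk libraries, fewer cells that express a gene and less RNA per cell cannot be told apart.

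Dlx1 and Dlx2, the pair known best from the forebrain and the branchial arches, fell most. Dlx1 was at 10.46, 11.3 and 10.3 FPKM in wild-type embryos 1, 2 and 3 and at 2.94, 1.39 and 3.33 FPKM in Sp8 null embryos 1, 2 and 3. The wild-type libraries were within 1.11 times of each other, while the Sp8 null libraries spread over 2.39 times with embryo 2 lowest. Sp8 null ectoderm kept 23.9% of the wild-type mean of Dlx1 (a log2 difference of -1.76, SE 0.21, limma adjusted p = 0.00412). Dlx2 was at 9.17, 11.3 and 9.70 FPKM in wild type and at 2.26, 1.08 and 2.43 FPKM in Sp8 null, again with embryo 2 lowest. It kept 19.1% of the wild-type mean (a log2 difference of -1.95, SE 0.19, limma adjusted p = 0.0017), and its lowest wild-type library was 3.77 times its highest Sp8 null library. By log2 fold change Dlx2 was the 30th and Dlx1 the 38th of the 625 genes that fell. Dlx1, Dlx2 and Dlx5 were among the 135 genes, 1.11% of those tested, that were called with a log2 fold change of -1 or less.

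Dlx3 and Dlx4 are the pair known from surface epithelia, where Dlx3 takes part in the differentiation of epidermis, hair and teeth. Dlx3 was at 15.7, 16.7 and 18.5 FPKM in wild-type embryos 1, 2 and 3 and at 10.6, 8.74 and 9.09 FPKM in Sp8 null embryos 1, 2 and 3. It kept more of its transcript than any other member, 55.9% of the wild-type mean (a log2 difference of -0.78, SE 0.10, limma adjusted p = 0.0054). Dlx4 was at 2.19, 2.41 and 2.94 FPKM in wild type and at 0.831, 0.634 and 0.917 FPKM in Sp8 null. It kept 31.6% of the wild-type mean (a log2 difference of -0.97, SE 0.13, limma adjusted p = 0.00619). Every Sp8 null library was under 1 FPKM for Dlx4, where the pseudocount of 1 shrinks the fold change, and with a pseudocount of 0.1 it was -1.55 (SE 0.22, limma adjusted p = 0.00829).

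Dlx5 and Dlx6 are the pair tied to split hand and foot. Dlx5 was at 18.5, 19.7 and 14.99 FPKM in wild-type embryos 1, 2 and 3 and at 7.95, 5.98 and 10.7 FPKM in Sp8 null embryos 1, 2 and 3. It kept 46.2% of the wild-type mean (a log2 difference of -1.05, SE 0.19, limma adjusted p = 0.0201), and the gap between the groups was the smallest of the family, with the lowest wild-type library 1.40 times the highest Sp8 null library. This call was lost without wild-type embryo 1 (limma adjusted p = 0.0622), without wild-type embryo 2 (0.0904) and without Sp8 null embryo 1 (0.0652). Dlx6 was at 3.99, 2.66 and 1.601 FPKM in wild type and at 1.10, 0.579 and 1.04 FPKM in Sp8 null. Its wild-type libraries spread over 2.49 times, more than those of any other member. The mean in Sp8 null was 33.0% of that in wild type, but the difference was not called (a log2 difference of -0.94, SE 0.24, limma adjusted p = 0.061). It was called without wild-type embryo 3, the lowest of its group (a log2 difference of -1.175, limma adjusted p = 0.0354), and when protein-coding genes alone were tested (adjusted p = 0.0272).

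**Figure D2:**
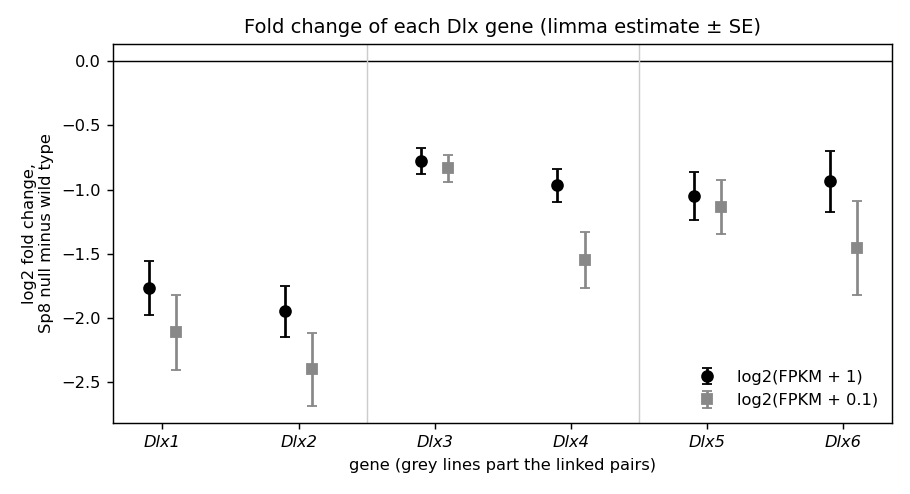
Log2 fold change of each Dlx gene, Sp8 null minus wild type, as the limma estimate ± SE from all 6 libraries, with a pseudocount of 1 (black) and of 0.1 (grey). Dlx1 and Dlx2 lie lowest at -1.76 and -1.95 with a pseudocount of 1, and the smaller pseudocount moves the low genes Dlx4 and Dlx6 most, to -1.55 and -1.46.

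All 6 members were lowest, within the Sp8 null group, in Sp8 null embryo 2. In that library 12 of the 14 limb mesenchyme markers were at their highest of the group, with Prrx1 at 53.3 FPKM against 13.6 and 11.95 FPKM in Sp8 null embryos 1 and 3. The summed FPKM of these markers was 136 to 187 in wild type and 150.2 to 250.2 in Sp8 null, and none was at 0 in every library. In the same library 9 of the 11 surface ectoderm markers were at their lowest of the group, and their sum was 631 FPKM against 721 and 764. Without it Dlx1 kept 29.3%, Dlx2 23.3%, Dlx3 58.1%, Dlx4 34.8%, Dlx5 52.5% and Dlx6 38.95% of the wild-type mean. The same 5 members were called without it, with log2 fold changes of -1.5 for Dlx1 and -1.72 for Dlx2 (limma adjusted p = 0.000586 and 0.000581).

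The linked genes were then compared within each library. Scaling between libraries cancels in the FPKM ratio but not in the tested log2 ratio, which has a pseudocount of 1 in both terms. The ratio of Dlx1 to Dlx2 FPKM was 1.14, 1.004 and 1.06 in wild-type embryos 1, 2 and 3 and 1.30, 1.29 and 1.37 in Sp8 null embryos 1, 2 and 3. Dlx2 was the lower gene in all 6 libraries, and every Sp8 null ratio was above every wild-type ratio. As log2((FPKM + 1)/(FPKM + 1)) the ratio was higher in Sp8 null by 0.19 (SE 0.06, two-sided exact permutation p = 0.1, 0.15 after Benjamini-Hochberg adjustment over the 3 pairs). With a pseudocount of 0.1 the difference was 0.29, and with none 0.31 (exact permutation p = 0.1 for both). With 3 libraries against 3 the smallest p that this test can give is 0.1.

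The ratio of Dlx4 to Dlx3 FPKM was 0.139, 0.144 and 0.159 in wild-type embryos 1, 2 and 3 and 0.0781, 0.0725 and 0.101 in Sp8 null embryos 1, 2 and 3. The groups did not overlap, and Dlx4, already the minor gene of the pair, made up less of it in each Sp8 null library. The log2 ratio with the pseudocount differed by -0.19 (SE 0.08, exact permutation p = 0.1, adjusted 0.15). The size depended on the pseudocount, and with 0.1 it was -0.72 (SE 0.14, exact permutation p = 0.1). With none, an alternative chosen after seeing the data, it was -0.83 (SE 0.16, exact permutation p = 0.1).

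The ratio of Dlx6 to Dlx5 FPKM was 0.215, 0.135 and 0.107 in wild-type embryos 1, 2 and 3 and 0.138, 0.0968 and 0.0977 in Sp8 null embryos 1, 2 and 3. The groups overlapped, and wild-type embryo 1 stood above all others. In that library 13 of the 14 limb mesenchyme markers and all 7 erythroid markers were at their highest of the wild-type group, with an erythroid sum of 422.8 FPKM against 36.2 and 11.6, and their part in the ratio was not tested. Without it the log2 ratio differed by 0.31, and the Dlx6 difference was -0.705 (limma adjusted p = 0.125). The log2 ratio differed by 0.11 (SE 0.24, exact permutation p = 0.9, adjusted 0.9). Its sign turned with a pseudocount of 0.1, to -0.32 (SE 0.32, exact permutation p = 0.5), with none, to -0.41 (SE 0.34, p = 0.3), and to -0.01 without wild-type embryo 3, so no direction could be given for this pair.

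**Figure D3:**
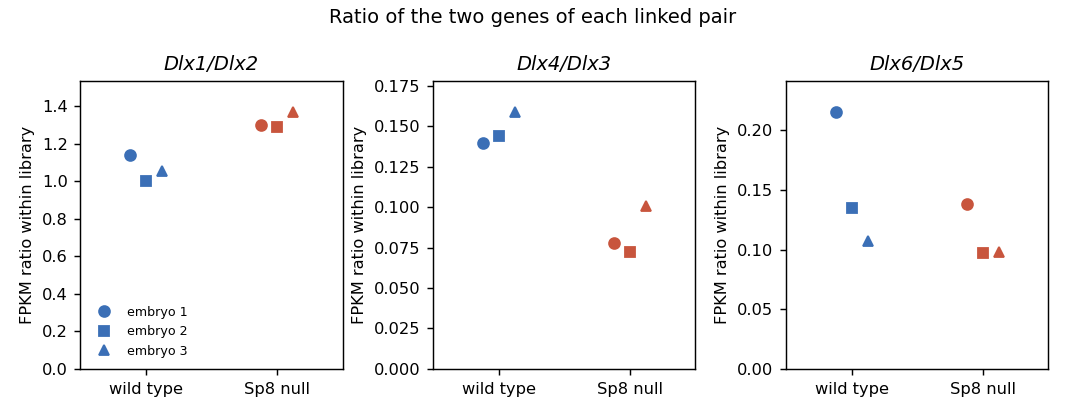
FPKM of the first-named gene divided by that of the second in each library (y axis), for 3 wild-type (blue) and 3 Sp8 null (red) embryos, with no pseudocount. For Dlx1/Dlx2 the Sp8 null libraries (1.29 to 1.37) lie above wild type, for Dlx4/Dlx3 they lie below (0.0725 to 0.101), and for Dlx6/Dlx5 the groups overlap.

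The make-up of the family's transcripts differed between the genotypes. Dlx1 and Dlx2 together held 34.1 ± 1.33% of the summed Dlx FPKM in wild type (SD, n = 3) and 18.2 ± 4.15% in Sp8 null, and the highest Sp8 null library (20.9%) was below the lowest wild-type library (32.7%). Dlx3 alone held 28.0 ± 3.34% in wild type and 40.7 ± 7.25% in Sp8 null, from 33.1% in Sp8 null embryo 3 to 47.5% in embryo 2. Its highest wild-type share, 31.9% in wild-type embryo 3, was close to the lowest of these. Dlx5 held 29.2 ± 2.86% and 34.1 ± 4.21%, and the highest wild-type library (30.84%) nearly met the lowest Sp8 null library (30.9%). Grouped by paralogue set, Dlx2, Dlx3 and Dlx5 held 73.7 ± 1.25% in wild type and 82.6 ± 2.85% in Sp8 null. Dlx1, Dlx4 and Dlx6 held the remaining 26.3% and 17.4%. The set of Dlx2, Dlx3 and Dlx5 did not move as one. The mean share of Dlx2 fell from 16.5% in wild type to 7.83% in Sp8 null, while those of Dlx3 and Dlx5 rose. These shares were not tested.

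**Figure D4:**
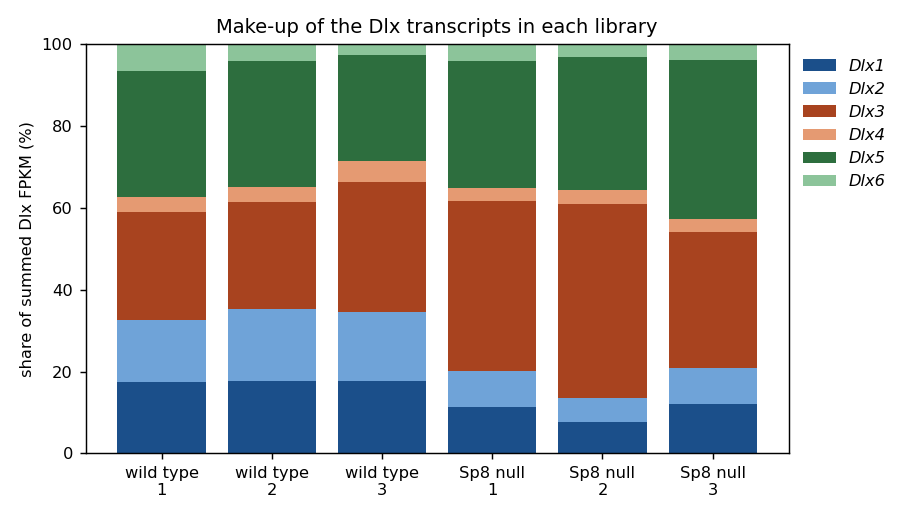
Share of the summed FPKM of Dlx1 to Dlx6 held by each gene (y axis, percent) in each of the 6 libraries (bars). The blue part, Dlx1 with Dlx2, holds 32.7% to 35.3% in wild type and 13.4% to 20.9% in Sp8 null.

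The authors' deposited table gave its own comparison, on group means of a normalized signal whose scale was not given in the sources used here. In the authors' deposited table the control means, read as wild type, and sample means, read as Sp8 null, were 1693.9 and 960.31 for Dlx3, 1175.14 and 270.1 for Dlx1, 898.39 and 424.3 for Dlx5, and 881.77 and 182.37 for Dlx2. They were far smaller for Dlx4 (190.03 and 60.2) and Dlx6 (77.15 and 30.48), again in the authors' deposited table. By these control means Dlx6 lay well below Dlx4, whereas in wild-type FPKM their libraries overlapped. The reason for this difference was not tested. The signed fold change in the authors' deposited table was -2.92 for Dlx1, -2.76 for Dlx2, -2.59 for Dlx4, -1.87 for Dlx6, -1.81 for Dlx5 and -1.72 for Dlx3. In the authors' deposited table a p-value of 0 was listed for Dlx1 to Dlx4, of 1.2e-05 for Dlx5 and of 5.9e-05 for Dlx6, from a test and adjustment not given in the sources used here. The ratio of those deposited means, computed here, was 4.83 for Dlx2 and 4.35 for Dlx1, the reverse of the order of the deposited fold changes for that pair.

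The pairs are accompanied by transcripts of the opposite strand. TruSeq v2 libraries do not mark strand, so reads from exons shared by a gene and its partner cannot be told apart. Dlx4os (ENSMUSG00000086552, chr11:95145052-95159047) shares 79 of the 3269 exon bases of Dlx4, or 2.4%. It was at 1.53, 1.63 and 1.98 FPKM in wild-type embryos 1, 2 and 3 and at 0.512, 0.206 and 0.642 FPKM in Sp8 null embryos 1, 2 and 3, and it fell (a log2 difference of -0.91, SE 0.15, limma adjusted p = 0.0156). Dlx6os1 (ENSMUSG00000090063, chr6:6820189-6871592) spans Dlx6 but shares no exon base with it. It was at 1.29, 1.10 and 1.17 FPKM in wild type and at 0.259, 0.328 and 0.319 FPKM in Sp8 null, and it fell as well (a log2 difference of -0.75, SE 0.11, limma adjusted p = 0.0111). Both passed the filter through wild type alone. Dlx1as (ENSMUSG00000084946, chr2:71516454-71537891), which shares 6.2% of the exon bases of Dlx1, did not pass the filter. It was at 0.153, 0.693 and 0.685 FPKM in wild type and at 0.314, 0.104 and 0.098 FPKM in Sp8 null, and the groups overlapped. Dlx6os2, which shares 104 of the 2375 exon bases of Dlx6, or 4.4%, was at most 0.181 FPKM in any library. A second, short entry with the symbol Dlx6os1 (ENSMUSG00000098326) was at 3.55 FPKM in wild-type embryo 1 and listed at 0 in the other libraries.

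Protein-coding genes within 250 kb of each pair were read next, to see how far the change reached along the chromosome. The share called among all tested genes was 6.83%, and the neighbours were too few to be compared with it. Near Dlx1 and Dlx2, 1 of 4 tested genes was called. This was Itga6, an integrin subunit of the epithelial basement membrane contact, which fell from 95.6 ± 8.001 to 60.5 ± 8.61 FPKM (a log2 difference of -0.66, SE 0.11, limma adjusted p = 0.0163). The nearest gene, Metap1d, 2919 bp away, was at 3.70 ± 0.29 FPKM in wild type and 2.71 ± 0.77 FPKM in Sp8 null and was not called (a log2 difference of -0.36, limma adjusted p = 0.228). Near Dlx3 and Dlx4, 1 of 7 tested genes was called, and it rose. This was Pdk2, a pyruvate dehydrogenase kinase, from 2.76 ± 0.11 to 3.96 ± 0.20 FPKM (a log2 difference of 0.40, SE 0.09, limma adjusted p = 0.0423). Near Dlx5 and Dlx6 the single tested gene, Sdhaf3, was not called (a log2 difference of -0.13, limma adjusted p = 0.669). Over the 12 tested neighbours the log2 fold changes ranged from -0.66 to 0.40, and every Dlx gene lay below that range.

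**Figure D5:**
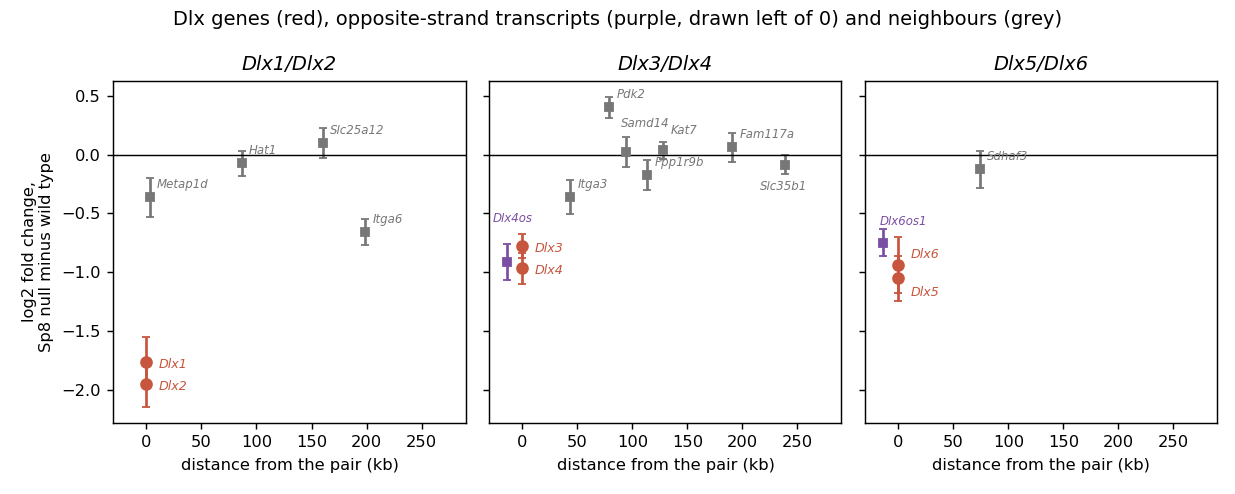
Log2 fold change, Sp8 null minus wild type (limma estimate ± SE, 6 libraries), against distance from the linked pair in kb for tested protein-coding neighbours (grey), with the Dlx genes at 0 (red) and opposite-strand transcripts drawn to their left (purple). The Dlx genes lie between -1.95 and -0.78, below the neighbours, whose lowest value is -0.66 for Itga6.

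A list of 29 genes held partners and possible regulators of Dlx genes, with other signals and factors of the ectoderm, and 28 could be tested. Whether any of them acts on Dlx genes here was not tested. On this list 12 fell and 2 rose (5.15% and 1.68% of all tested genes), with a median log2 fold change of -0.24, against -0.06 over all tested genes. Of those that fell, Fgf4 and Fgf9 passed the filter through wild type alone, so their direction was built in. Msx2, Fgf4, Fgf8, Fgf9 and En1 are also among the ridge markers counted above. Msx1 and Msx2 encode homeodomain repressors that can bind Dlx proteins, and both fell (log2 fold changes -1.23 and -1.72, limma adjusted p = 0.00467 and 1.62e-05). The signal genes Wnt3 (-0.52) and Wnt7a (-0.98) and the patterning gene En1 (-1.71) fell, as did Fgf9 (-2.64), Fgf4 (-3.43) and Fgf8 (-4.38), each as a log2 difference (limma adjusted p-values from 1.5e-05 to 0.0373). Of the BMP pathway, a known inducer of Dlx genes, the ligand gene Bmp4 fell from 125.5 ± 5.59 to 37.7 ± 4.54 FPKM (a log2 difference of -1.72, limma adjusted p = 0.000124), while Bmp2 (-0.03) and Bmp7 (-0.11) were not called (limma adjusted p = 0.939 and 0.459). The BMP response genes Id1 (-1.46), Id2 (-0.72) and Id3 (-1.29) fell (limma adjusted p = 0.00113, 0.0384 and 0.00617), and Smad1, a signal transducer of the pathway, rose by 0.54 (log2 difference, limma adjusted p = 0.0115). Smad4 (0.05), Smad5 (-0.26), the inhibitory Smad6 (-0.41) and the receptor genes Bmpr1a (-0.16) and Bmpr1b (0.03) were not called (limma adjusted p = 0.809, 0.0738, 0.062, 0.207 and 0.916). Trp63, the regulator of stratified epithelium that is known to act on Dlx genes, was at 131 ± 10.97 FPKM in wild type and 125 ± 12.5 FPKM in Sp8 null (a log2 difference of -0.08, limma adjusted p = 0.682). Tfap2a, another ectodermal factor, rose by 0.52 (limma adjusted p = 0.0163). Maged1, which encodes a protein that binds Dlx5, was not called (a log2 difference of 0.07).

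A list of other homeobox genes, without Msx1, Msx2 and En1 described above, was mostly at low levels. Of its 29 genes found in the table, 25 were under 1 FPKM in every library, and 4 could be tested. Barx2 rose from 1.81 ± 0.08 to 4.02 ± 0.74 FPKM (a log2 difference of 0.83, SE 0.13, limma adjusted p = 0.0116), the opposite direction to the Dlx genes. Emx1 was at 1.99 ± 0.53 FPKM in wild type and 0.854 ± 0.21 FPKM in Sp8 null and was not called (a log2 difference of -0.68, limma adjusted p = 0.0566). Emx2 was not called either (a log2 difference of -0.01).

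Across the 6 libraries the Dlx profiles were compared by Pearson's r of log2(FPKM + 1), as a description, since all points share the genotype difference. Linked genes gave r = 0.997 for Dlx1 with Dlx2, 0.982 for Dlx3 with Dlx4 and 0.906 for Dlx5 with Dlx6. The values for Dlx1 with Dlx2 and Dlx3 with Dlx4 were above every unlinked pair, the highest being 0.976 for Dlx2 with Dlx4. Dlx5, however, was closer to the unlinked Dlx1 (0.974) and Dlx2 (0.964) than to Dlx6. Dlx6 was the least like the rest, with r from 0.763 (Dlx4) to 0.906 (Dlx5). Over all tested genes the nearest profile was that of Fndc3a to Dlx1 (r = 0.9997), Slc7a1 to Dlx2 (0.9997), the pseudogene Gm8730 to Dlx3 (0.9985), Sct to Dlx4 (0.9973), Nhp2 to Dlx5 (0.9993) and the pseudogene Gm43106 to Dlx6 (0.9972). Sp8 itself was the second nearest to Dlx4 (r = 0.9969). The next in rank, with r from 0.991 to 0.999, were Cdc14a and Rras2 for Dlx1, Mogs and Fjx1 for Dlx2, Nsg2 and Tgfb1 for Dlx3, Pik3cb for Dlx4, Polr1d and Ybx3 for Dlx5, and Usp39 and Ppp1r2 for Dlx6. This measure ignores the size of a change: Slc7a1, an amino acid transporter gene, fell by 1.56 (log2), and Pik3cb was not called (a log2 difference of -0.16, limma adjusted p = 0.336).

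The sequence before the start of Dlx2, the member that fell most, is shown from RefSeq (GRCm38.p6, chr2:71546755-71547004, minus strand), as the 250 bases before the start read 5′ to 3′. It was searched on both strands for GGGCGG, the GC box that Sp proteins can bind, CCACCC, the CACC box, and TAATTA, a homeodomain core. These motifs do not overlap each other here, and capitals mark the matches.
Dlx2: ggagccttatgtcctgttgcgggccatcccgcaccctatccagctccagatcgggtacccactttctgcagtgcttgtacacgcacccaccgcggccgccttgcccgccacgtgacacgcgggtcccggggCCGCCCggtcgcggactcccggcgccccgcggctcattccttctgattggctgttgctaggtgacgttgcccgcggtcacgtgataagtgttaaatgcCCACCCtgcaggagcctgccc
The window held 1 GC box, on the reverse strand and 119 to 114 bases before the start, and 1 CACC box 21 to 16 bases before it. Of 32536 RefSeq windows of the same length, 33.0% held the GC box, 28.1% the CACC box and 4.8% TAATTA. The match is a description of these letters and not a site.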

How the data were processed

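RNA was measured by polyadenylated RNA-seq in 6 libraries, 1 embryo each, and samples were grouped by their titles. The authors deposited FPKM per gene and library, a status for each estimate (other), and, per the file headers, a mean per group (a normalized signal), a signed fold change (a score) and a p-value. Gene models were Ensembl build 87, per the file headers. The submitters' processing notes name TopHat2, Cufflinks, SAMtools, DESeq2, FastQC and GRCm38, with no role or version. Strand use and between-library scaling were not given in the sources used here.

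Genes that reached 1 FPKM in 3 or more libraries were analysed as log2(FPKM + 1), a scale that understates the change of low genes, with limma 3.58.1 in R 4.3.3 (genotype as the only term, mean-variance trend, two-sided p, Benjamini-Hochberg over 12133 genes). The fit was tested on simulated data. Nothing says whether embryos of a genotype shared a litter, so p-values measure the spread between these embryos. Linked genes were compared by exact permutation. Relative depth came from the commonest ratio of values under 0.1 FPKM, and no counting interval is given because counts are unknown. Named genes were the 6 members, overlapping and opposite-strand transcripts, protein-coding genes within 250 kb, the 3 tested genes nearest to each member by r, and called or role-defining members of the lists. The members and lists were chosen with earlier results of these data known. Other lists were erythroid (5 tested, median log2 fold change 0.72), endothelium (1 tested, 0.15), and neural crest (1 tested, 0.10), with no call, and macrophage and forebrain (0 tested). In limb mesenchyme (11 tested, 0.23) 1 gene was called, higher. RefSeq promoter entries were matched by symbol for 2 of the 6 members.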

Additional observations from a re-analysis of the deposited data

How the results depend on the processing

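All 6 members kept a lower mean in Sp8 null under every alternative that tested them, and Dlx1, Dlx2, Dlx3 and Dlx4 kept their call in each one that tested them. Dlx4 was not tested with a mean of at least 5 FPKM or without any of the wild-type embryos, and Dlx6 was not tested with that mean. The Dlx5 value (-1.05) was no longer called with no filter (limma adjusted p = 0.0934) and ranged from -1.24 to -0.87 with 1 replicate left out. Dlx6 (-0.94) was called with the sample-name number as a covariate (limma adjusted p = 0.0495) and with protein-coding genes alone (-0.94), and ranged from -1.175 to -0.705 with 1 replicate left out. The number of members called ranged from 3 to 5 with 1 replicate left out, being 3 without wild-type embryo 1 and without wild-type embryo 2, when 5 were tested. The Dlx6 to Dlx5 log2 ratio changed sign with a pseudocount of 0.1 (-0.32), with none (-0.41) and without wild-type embryo 3 (-0.014), and with 1 replicate left out it ranged from -0.014 to 0.31. Over all genes, 829 were called, 342 with no filter (27766 tested), 545 with the leading number as a covariate, and from 213 (without wild-type embryo 2) to 665 with 1 replicate left out, fits with fewer samples. Same-numbered embryos were not paired (r of deviations -0.16, -0.14 and -0.07). With the replicate block 328 genes were called, and 4 members, Dlx5 being at -1.05 (limma adjusted p = 0.0589). The pseudocount and the low signal limit Dlx4 and Dlx6 most. The cause of these changes was not tested.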

Other observations

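The list of forebrain and interneuron genes, chosen as markers of another place where Dlx1 and Dlx2 act, held low but separate values. Gad2, which encodes an enzyme that makes the transmitter GABA, was at 0.493, 0.401 and 0.429 FPKM in wild-type embryos 1, 2 and 3 and at 0.015, 0.0418 and 0.00413 FPKM in Sp8 null embryos 1, 2 and 3. Gad1, which encodes the related enzyme, was at 0.238, 0.295 and 0.292 FPKM in wild type, and it was listed at 0 in Sp8 null embryos 1 and 2 and at 0.0279 FPKM in embryo 3. Neither passed the filter, so neither was tested.

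Lmx1b, known as the dorsal factor of limb mesenchyme, was the 1 mesenchymal marker called, and it rose from 5.95 ± 1.21 to 13.7 ± 3.46 FPKM (SD, n = 3), a log2 difference of 1.07 (limma adjusted p = 0.0166), with its highest value in Sp8 null embryo 2 (17.7 FPKM).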
